A study of Mus musculus with 6 samples.

Results

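The genes described here are the amino acid transporters of 7 solute carrier families, followed in luminal mammary epithelial cells that had been sorted on a *Sox9* reporter. They were taken as every gene whose symbol begins with Slc1a, Slc3a, Slc6a, Slc7a, Slc36a, Slc38a or Slc43a followed by a number. The rule used no measured value and gave 62 of the 19505 named genes on the array, each with 1 probe set. *Slc7a6os* met the rule by its symbol and is not a carrier but the opposite-strand neighbour of *Slc7a6*.

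RNA had been measured on 6 one-colour expression arrays, 3 of luminal Sox9-GFP high cells and 3 of luminal Sox9-GFP low cells. Both sorts came from the mammary glands of 3 female mice, about 3 months old and on an FVB/NJ background, that carried Sox9-GFP and C3(1)/Tag. Both groups therefore had the GFP transgene that reports *Sox9* and the C3(1)/Tag transgene, which drives SV40 large T antigen, a viral oncoprotein, and there was no group without the antigen. Each sort's arrays carry the numbers 1 to 3 in the labels, which do not tie a number to an animal or say whether glands were pooled, so p-values measure the spread between these arrays, which may be technical. Values are the authors' log2 values. A fold is 2 to the power of a difference between mean log2 values, and a gene is said to have risen or fallen in Sox9-GFP high cells where limma's Benjamini-Hochberg adjusted p over all 22206 probe sets was under 0.05.

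Amino acids enter cells through carriers that differ in what they move and what drives them. The Slc38a carriers use the sodium gradient to take up glutamine and other neutral amino acids, and the Slc1a family joins carriers of acidic amino acids to the ASCT exchangers, which swap one neutral amino acid for another. Slc7a light chains work as exchangers once they are joined to a Slc3a heavy chain. One such pair, xCT (*Slc7a11*) with CD98 (*Slc3a2*), brings in cystine, the oxidised form of cysteine from which cells make glutathione, and releases glutamate. Slc43a carriers let neutral amino acids pass down their gradient, Slc36a carriers use protons, and Slc6a carriers use sodium and chloride to take up glycine, taurine, creatine and transmitters. In the mammary gland these families supply the amino acids of milk protein. Several of the genes are targets of ATF4, a transcription factor that is made when amino acids run short and that binds the C/EBP-ATF element.

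Of the 62 genes, 45 had an entry among the promoter windows of RefSeq (GRCm38.p6), which span the start of each gene. The C/EBP-ATF element, searched as TGATGNAA on both strands, was found in 3.97% of all 32851 windows and in those of 4 of the genes, *Slc1a4*, *Slc6a21*, *Slc7a11* and *Slc7a7*. Some genes had more than 1 window, so the share of windows and the count of genes cannot be compared directly. Stretches from 2 of these 4 genes are shown because *Slc7a11* and *Slc1a4* are among the genes that fell, with the matches in capitals.
Slc7a11, chr3:50443614-50443729, minus strand, bases -116 to -1: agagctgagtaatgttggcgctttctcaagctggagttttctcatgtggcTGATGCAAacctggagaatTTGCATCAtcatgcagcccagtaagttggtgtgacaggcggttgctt
Slc1a4, chr11:20332710-20332767, minus strand, bases -54 to 4: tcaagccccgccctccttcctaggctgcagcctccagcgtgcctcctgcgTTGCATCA
The *Slc7a11* window held the element in both orientations, at -66 to -59 on the gene's own strand and at -47 to -40 on the other. The *Slc1a4* window held it on the other strand, across the start. Of the other genes that passed the test, *Slc38a6* and *Slc43a2* had windows, and none of these held that element or any of the 3 other motifs searched, which were the antioxidant response element (TGACNNNGC, in 12.4% of all windows), the E-box (CACGTG, in 7.15%) and a SOX consensus (ACAANG, in 41.2%). The *Slc7a11* window also held a SOX match at -188 to -183. A match describes the letters of the window and is not a binding site.

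*Sox9*, on which the cells were sorted, had log2 values of 14.42, 13.77 and 14.46 in Sox9-GFP high cells and of 13.36, 12.82 and 13.44 in Sox9-GFP low cells, so that all arrays of the first sort were above all of the second (2.02-fold, limma's adjusted p = 0.0360). Its adjusted p ran from 0.0222 to 0.128 in fits without 1 array and was past the threshold in only 1 of these 6 fits, the one without Sox9-GFP high replicate 2. With arrays blocked by number (the replicate block) it was 0.00475. All 10 luminal markers were above the array medians in all arrays, among them *Krt8*, *Krt18* and *Epcam*, which fits the label. The mean of these 10 was 14.48 to 14.74 in Sox9-GFP high arrays and 14.74 to 15.02 in Sox9-GFP low arrays. *Krt19* and *Muc1* fell by 1.65 and 1.20 on the log2 scale. The other 8 did not pass in limma, with or without the block, and differed by -0.28 (*Cldn7*) to 0.12 (*Cldn3*). The mean of 10 basal markers was 7.36 to 8.16 in Sox9-GFP high arrays and 6.97 to 7.55 in Sox9-GFP low arrays. *Krt17* rose by 2.09 on the log2 scale (adjusted p = 0.0339 from limma), and with the block *Mylk* did too (difference 2.53). No other basal marker passed in either fit. Differences were above 0 for 6 of the 10 and below 0 for 4, with *Krt14* at 0.55 and *Acta2* at -0.64. *Krt14*, *Krt17*, *Acta2* and *Tagln* were above the array medians in all arrays of both sorts, with *Krt14* at means of 14.80 in Sox9-GFP high and 14.25 in Sox9-GFP low cells. *Krt5*, *Myh11* and *Oxtr* were below the array medians in all arrays. All 8 measured immune markers were below the medians in all arrays, as were 5 of the 8 endothelial and 5 of the 6 measured neuronal and Schwann cell markers. Of 7 measured fibroblast markers, *Dcn* fell by 2.22 on the log2 scale (adjusted p = 0.00122 from limma) and the other 6 did not pass. *Dcn*, with means of 9.44 in Sox9-GFP high and 11.66 in Sox9-GFP low cells, and *Col1a1* were above the medians in all arrays. Another 4, among them *Col1a2* and *Col3a1*, were below the medians in all arrays, and *Lum* lay on both sides. The mean of the 6 adipocyte markers was 4.48 to 4.80 in Sox9-GFP high and 4.92 to 5.12 in Sox9-GFP low arrays, and none passed. *Adipoq* and *Plin1* were below the medians in all arrays and *Fabp4* above them. *Fabp4* differed by -1.42 (adjusted p = 0.104 from limma), and by -2.31, -2.16 and 0.22 in the arrays numbered 1, 2 and 3. The part of these markers in the differences below was not tested. In such bulk samples fewer cells with a transcript and less transcript per cell cannot be told apart.

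The transporters moved in both directions. In Sox9-GFP high cells 2 of 62 rose (3.23%, against 4.18% of all named genes) and 5 fell (8.06%, against 3.18%), while 55 did not pass. The 2 that rose were *Slc38a1* and *Slc1a5*, both carriers of glutamine. The 5 that fell were *Slc43a2*, *Slc43a3*, *Slc7a11*, *Slc1a4* and *Slc38a6*. With the replicate block 3 rose, against 6.60% of all named genes, and the same 5 fell, against 5.09%, the added gene being *Slc7a3*. The median difference over the 62 was -0.08 on the log2 scale, against 0.01 over all named genes, with 23 differences above 0 and 39 below. Arrays of the sorts did not overlap for 3 genes with Sox9-GFP high above (14.6% of all named genes) and for 10 with it below (11.5%).

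Most of the calls lay among the brighter genes. Of the 62, 26 were above the array medians (5.15 to 5.21) in all arrays, and 6 of the 7 genes that passed were among them. Another 32 were below the medians in all arrays and none of these passed in limma, in the fit with or without the block or at an unadjusted p under 0.05. The remaining 4, on both sides of the medians, included *Slc43a2*. Among all named genes above the medians in all arrays 7.29% rose and 5.49% fell, against 2 and 4 of the 26 genes. No measure of background was given, so a gene below the medians may not have been detectable.

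**Figure D1:**
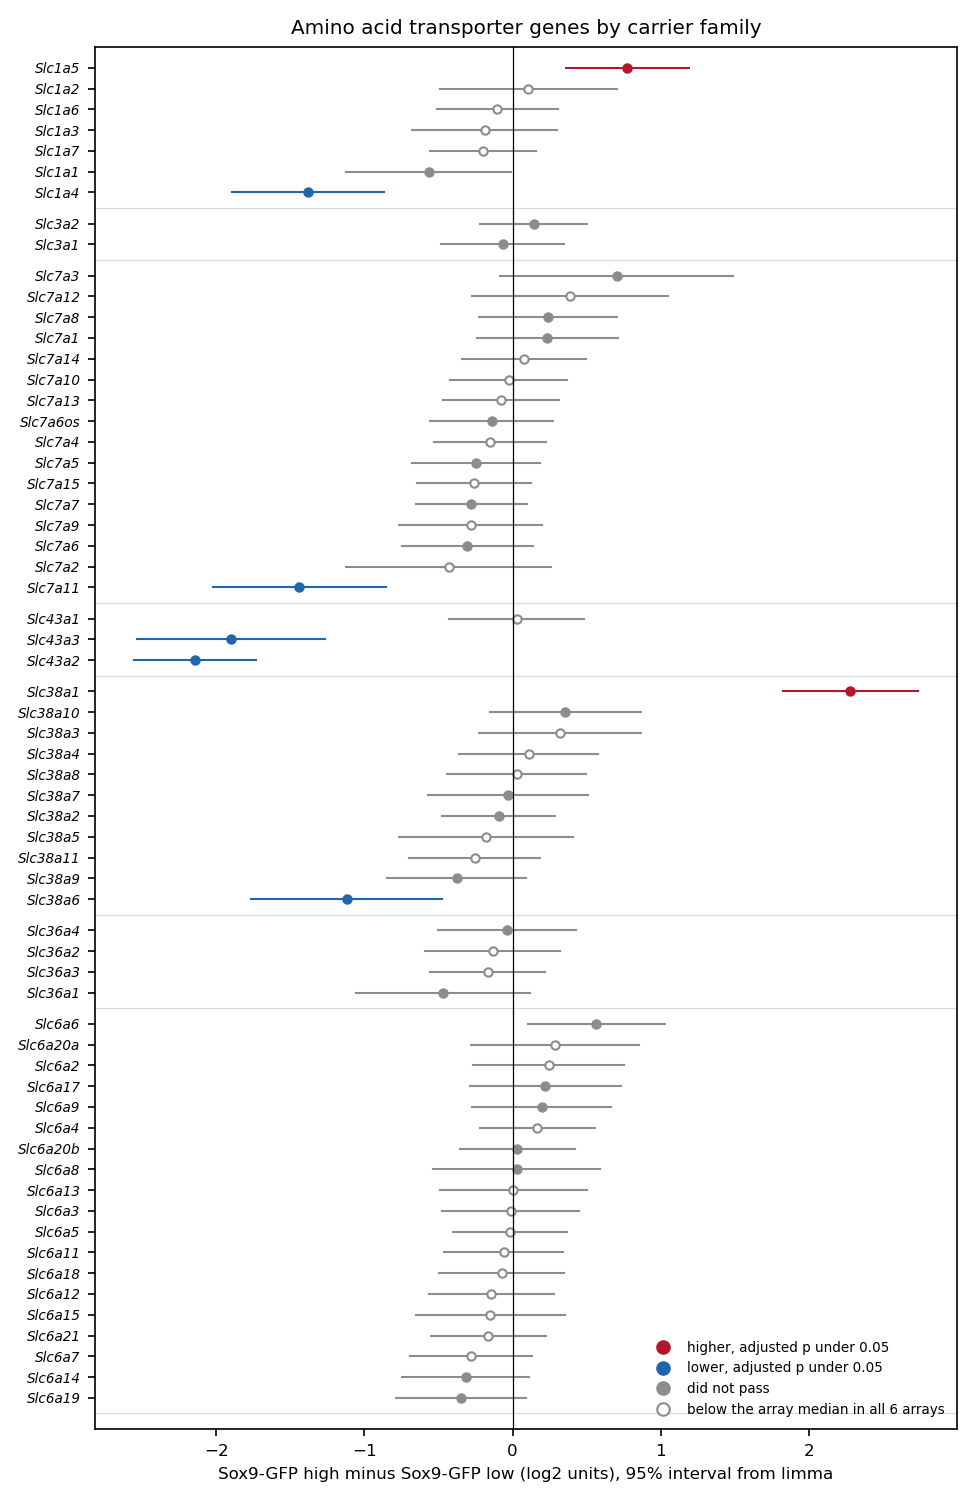
Log2 value in Sox9-GFP high cells minus that in Sox9-GFP low cells for the 62 genes, 3 arrays a sort, grouped by family. Points are limma's estimates, bars their 95% intervals, red and blue mark genes past an adjusted p of 0.05, and open points mark genes below the array median in all arrays. The 7 coloured points lie in the Slc1a, Slc7a, Slc43a and Slc38a families, and the Slc3a, Slc36a and Slc6a families hold none.

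In the Slc38a family 1 of 11 genes rose and 1 fell. *Slc38a1* encodes SNAT1, a sodium-coupled carrier of glutamine and small neutral amino acids. Its log2 values were 11.63, 11.60 and 11.66 in Sox9-GFP high cells and 9.60, 8.94 and 9.51 in Sox9-GFP low cells. The Sox9-GFP high arrays lay close together and far above all Sox9-GFP low arrays, which spread more (SD 0.03 and 0.36, n = 3 each). The difference was 2.28 ± 0.20 (SE) on the log2 scale, or 4.86-fold (adjusted p = 0.000416 from limma), and stayed past the threshold without any 1 array.

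*Slc38a6* encodes a less studied relative of the same family. Its values were 6.25, 6.85 and 5.63 in Sox9-GFP high cells and 7.09, 7.63 and 7.36 in Sox9-GFP low cells, with no overlap and the wider spread in Sox9-GFP high cells. It was 2.17-fold lower there (difference -1.12 ± 0.29 SE, adjusted p = 0.0457 from limma). Without any array other than Sox9-GFP high replicate 2 the adjusted p was between 0.0597 and 0.141, and without that array it was 0.0178. With the replicate block it was 0.0120.

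*Slc38a2*, the gene of SNAT2, is the carrier of this family best known for its response to amino acid shortage. Its values were 16.55, 16.49 and 16.59 in Sox9-GFP high and 16.72, 16.42 and 16.77 in Sox9-GFP low cells, which overlapped (difference -0.09, 95% interval -0.48 to 0.29). The change of *Slc38a1* exceeded that of *Slc38a2* by 2.19, 2.60 and 2.33 on the log2 scale in the arrays numbered 1, 2 and 3, and the values of this within-array difference did not overlap between sorts (two-sided exact permutation p = 0.10, which with 3 arrays against 3 is the lowest possible). That separation adds nothing to the values above, since the gap of *Slc38a1* between sorts was wider than the whole range of *Slc38a2*. This pair of genes, and the other pairs below, were chosen after their values were seen, 5 pairs in all. All 5 pairs gave that same p, the lowest this permutation test can reach. The lysosomal arginine sensor *Slc38a9* was lower in all Sox9-GFP high arrays, at 6.56, 7.20 and 7.20 against 7.30, 7.30 and 7.50, and did not pass (difference -0.38, adjusted p = 0.367 from limma). The differences of the remaining 7 genes of the family ran from -0.26 for *Slc38a11* to 0.36 for *Slc38a10*, and 5 of them were below the array medians in all arrays.

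In the Slc1a family the ASCT exchangers moved in opposite directions. *Slc1a5* encodes ASCT2, an exchanger of neutral amino acids that carries glutamine. Its log2 values were 12.91, 13.05 and 12.92 in Sox9-GFP high cells and 11.89, 12.28 and 12.39 in Sox9-GFP low cells. No Sox9-GFP low array reached the Sox9-GFP high arrays. It was 1.71-fold higher in Sox9-GFP high cells (difference 0.78 ± 0.19 SE, adjusted p = 0.0343 from limma, and 0.0231 with the replicate block). The call was lost without any 1 array except Sox9-GFP low replicate 3, at adjusted p between 0.0692 and 0.107 for differences of 0.63 to 0.82.

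*Slc1a4* encodes ASCT1, an exchanger of alanine, serine, cysteine and threonine. It had 6.90, 7.22 and 7.16 in Sox9-GFP high cells and 8.01, 8.85 and 8.58 in Sox9-GFP low cells. The sorts did not overlap, and the gap between them was wider than the SD of either. It was 2.61-fold lower in Sox9-GFP high cells (difference -1.38 ± 0.23 SE, adjusted p = 0.00663 from limma) and stayed past the threshold without any 1 array. The change of *Slc1a5* exceeded that of *Slc1a4* by 2.13, 2.40 and 1.95 in arrays 1, 2 and 3, with no overlap between sorts (exact permutation test, two-sided p = 0.10). That separation adds nothing to the values above, since each gene alone separated the sorts, in opposite directions.

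Among the carriers of acidic amino acids, *Slc1a1* encodes EAAC1, which also takes up cysteine. Its values were 12.79, 12.83 and 12.29 in Sox9-GFP high cells and 13.06, 13.70 and 12.85 in Sox9-GFP low cells. All Sox9-GFP high arrays were below all Sox9-GFP low arrays, by a small gap, and the difference of -0.57 did not pass (adjusted p = 0.233 from limma, and 0.0827 with the replicate block). *Slc1a2*, *Slc1a3*, *Slc1a6* and *Slc1a7*, which are carriers of neurons, glia and retina, were below the array medians in all arrays, with differences from -0.20 to 0.11.

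**Figure D2:**
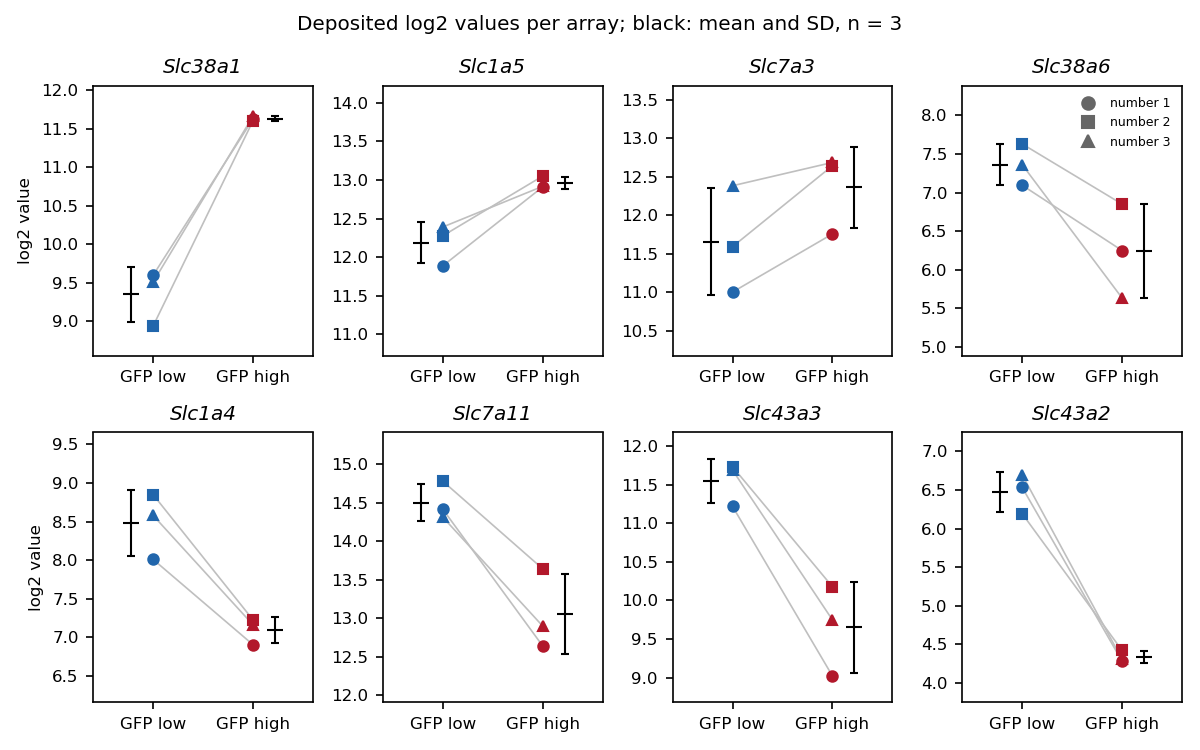
Deposited log2 values per array of the 8 genes past an adjusted p of 0.05 without or with the replicate block, 3 arrays a sort. Grey lines join arrays of the same number, black marks are the mean and SD, and all panels span 3.5 log2 units. All lines of *Slc38a1*, *Slc1a5* and *Slc7a3* rise towards Sox9-GFP high cells and all lines of the other 5 fall, while for *Slc7a3* alone the sorts overlap.

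Among the heteromeric exchangers the cystine carrier fell while its heavy chain did not pass. *Slc7a11*, the gene of xCT, had 12.64, 13.64 and 12.90 in Sox9-GFP high cells and 14.41, 14.78 and 14.31 in Sox9-GFP low cells. The array closest to the other sort was Sox9-GFP high replicate 2, still below all Sox9-GFP low arrays. The gene was 2.71-fold lower in Sox9-GFP high cells (difference -1.44 ± 0.26 SE, adjusted p = 0.00995 from limma) and stayed past the threshold without any 1 array.

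*Slc3a2*, the gene of the CD98 heavy chain, had 16.56, 16.61 and 16.51 in Sox9-GFP high cells and 16.31, 16.43 and 16.51 in Sox9-GFP low cells. All Sox9-GFP high arrays were above all Sox9-GFP low arrays, although the arrays numbered 3 were alike to the second decimal. The difference of 0.14 did not pass (95% interval -0.22 to 0.50). *Slc7a5*, the gene of the large neutral amino acid carrier LAT1, which shares that heavy chain, had 13.36, 12.97 and 13.43 against 13.73, 13.37 and 13.40, with overlap (difference -0.25, 95% interval -0.68 to 0.19). Neither gene passed, and their intervals leave room for a change up to their bounds. The changes of *Slc3a2* and *Slc7a5* exceeded that of *Slc7a11* by 1.58 and 1.19 on the log2 scale, and the within-array differences did not overlap between sorts (exact permutation test, two-sided p = 0.10 for each). For *Slc3a2* this had to follow, since it and *Slc7a11* each separated the sorts, in opposite directions.

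The other light chains of CD98 did not pass. *Slc7a6* and *Slc7a7*, which exchange cationic for neutral amino acids, differed by -0.30 and -0.28, and their Sox9-GFP high arrays lay below their Sox9-GFP low arrays by small gaps. *Slc7a8*, the gene of LAT2, differed by 0.24 with overlap. *Slc7a10*, a carrier of small neutral amino acids, was below the array medians in all arrays and differed by -0.03. *Slc3a1*, the heavy chain rBAT, had 5.86, 5.92 and 5.84 against 6.19, 5.97 and 5.65 and overlapped (difference -0.07, 95% interval -0.48 to 0.35), and its light chain *Slc7a9* was below the medians in all arrays.

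**Figure D3:**
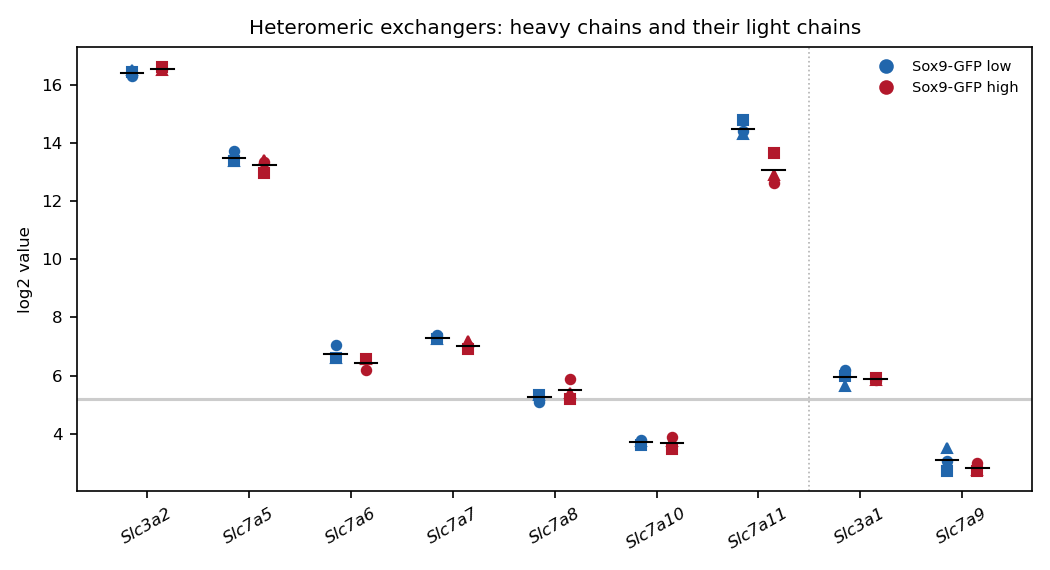
Log2 values per array of the heavy chains Slc3a2 and Slc3a1 and of light chains that pair with them, left and right of the dotted line, with number 1 as circles, 2 as squares and 3 as triangles. Black bars are means of 3 arrays and the grey band spans the array medians of 5.15 to 5.21. *Slc7a11* is the light chain whose sorts separate widely, with Sox9-GFP high arrays from 12.64 to 13.64 and Sox9-GFP low arrays from 14.31 to 14.78, and heights of different genes are not comparable.

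The cationic amino acid carriers, which take up arginine and lysine without a heavy chain, held the gene that passed only with the block. *Slc7a3* had 11.76, 12.64 and 12.69 in Sox9-GFP high cells and 11.00, 11.59 and 12.38 in Sox9-GFP low cells. The sorts overlapped, yet each Sox9-GFP high array was above the Sox9-GFP low array of its number, by 0.75, 1.05 and 0.30. The difference of 0.70 had an adjusted p of 0.306 from limma without the block and of 0.0487 with it. *Slc7a1*, the widely expressed member, differed by 0.23 with overlap, and *Slc7a2* was below the medians in all arrays and differed by -0.43. *Slc7a6os* differed by -0.14, and as it lies against *Slc7a6* their signals may not be fully separate. The other 5 Slc7a genes, *Slc7a4*, *Slc7a12*, *Slc7a13*, *Slc7a14* and *Slc7a15*, were below the medians in all arrays, with differences of -0.26 to 0.39.

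In the Slc43a family 2 of 3 genes fell, among them the gene with the largest fall of the 62. *Slc43a2* encodes LAT4, a facilitative carrier of branched-chain and other large neutral amino acids. Its values were 4.28, 4.42 and 4.30 in Sox9-GFP high cells and 6.53, 6.19 and 6.70 in Sox9-GFP low cells. All Sox9-GFP high arrays were below the array medians and all Sox9-GFP low arrays above them. It was 4.41-fold lower in Sox9-GFP high cells (difference -2.14 ± 0.18 SE, adjusted p = 0.000347 from limma) and stayed past the threshold without any 1 array. As the values of Sox9-GFP high cells may be at background, the true ratio may be larger.

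*Slc43a3*, a relative that is known as a carrier of nucleobases rather than amino acids, had 9.02, 10.18 and 9.75 in Sox9-GFP high cells and 11.22, 11.73 and 11.69 in Sox9-GFP low cells. The sorts did not overlap, and Sox9-GFP high arrays spread more (SD 0.58 and 0.28, n = 3 each). It was 3.73-fold lower in Sox9-GFP high cells (difference -1.90 ± 0.28 SE, adjusted p = 0.00397 from limma) and stayed past the threshold without any 1 array. *Slc43a1*, the gene of LAT3, was below the medians in all arrays and differed by 0.03.

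None of the 19 Slc6a genes passed in limma, with or without the block, and 1 had an unadjusted p under 0.05. That gene was *Slc6a6*, the taurine carrier, at 10.64, 10.50 and 10.14 in Sox9-GFP high cells and 10.16, 9.63 and 9.80 in Sox9-GFP low cells. The sorts overlapped by 1 array on each side, although each numbered pair was higher in Sox9-GFP high cells (difference 0.57, 95% interval 0.10 to 1.03, adjusted p = 0.145 from limma). The glycine carrier *Slc6a9* had 12.59, 12.98 and 12.69 against 12.47, 12.29 and 12.91, with overlap (difference 0.20, adjusted p = 0.692 from limma). The creatine carrier *Slc6a8* differed by 0.03, with a 95% interval of -0.54 to 0.59. The other 16 genes differed by -0.35 to 0.29, and 12 of the 19, among them the carriers of noradrenaline, dopamine and serotonin (*Slc6a2*, *Slc6a3* and *Slc6a4*), were below the array medians in all arrays. *Slc6a20a* and *Slc6a20b* are near-identical copies whose probes may take up each other's transcripts.

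None of the 4 Slc36a genes passed in limma, with or without the block, and none had an unadjusted p under 0.05. *Slc36a1*, a proton-coupled carrier of the lysosome and the cell surface, had 6.47, 5.51 and 5.49 in Sox9-GFP high cells and 6.18, 6.46 and 6.23 in Sox9-GFP low cells. Arrays 2 and 3 were lower in Sox9-GFP high cells and array 1 was higher, and the difference of -0.47 did not pass (adjusted p = 0.370 from limma). *Slc36a4* had 8.04, 8.39 and 8.40 against 8.0, 8.30 and 8.64 and overlapped (difference -0.04, 95% interval -0.51 to 0.43). *Slc36a2* and *Slc36a3* were below the medians in all arrays.

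Genes around the transporters moved in no common direction. In 5 lists of other amino acid genes 120 of 131 genes were measured, of which 7 rose (5.83%, against 4.18% of all named genes) and 4 fell (3.33%, against 3.18%). With the replicate block 9 of the 120 rose, against 6.60% of all named genes, and 7 fell, against 5.09%. The median differences of the lists ran from -0.05 to 0.08, against 0.01 over all named genes. As over all probe sets, fewer genes were called with an array left out. The number was 11 (9.17%, against 7.2% of all probe sets) with all arrays but 6 when replicate 2 of either sort was left out, 4 when Sox9-GFP high replicate 3 was left out and 5 when Sox9-GFP low replicate 3 was, while the share of all probe sets called was 4.17% to 5.54% in the fits without 1 array.

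Of 22 other amino acid and peptide carriers 1 rose and none fell. *Slc16a10*, the aromatic amino acid carrier TAT1, had 5.43, 4.96 and 5.34 in Sox9-GFP high cells and 4.13, 3.93 and 3.67 in Sox9-GFP low cells. The Sox9-GFP low arrays were all below the array medians, and the Sox9-GFP high arrays were on both sides of them. It was 2.52-fold higher in Sox9-GFP high cells (adjusted p = 0.00397 from limma) and passed without any 1 array. The peptide carrier *Slc15a2* passed with the block alone, as lower (difference -0.69, adjusted p = 0.259 without and 0.0300 with the block). *Slc15a4*, a lysosomal peptide and histidine carrier, and *Slc25a44*, the mitochondrial carrier of branched-chain amino acids, differed by 0.64 and 0.53 with no overlap and did not pass (adjusted p = 0.0943 and 0.194 from limma).

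**Figure D4:**
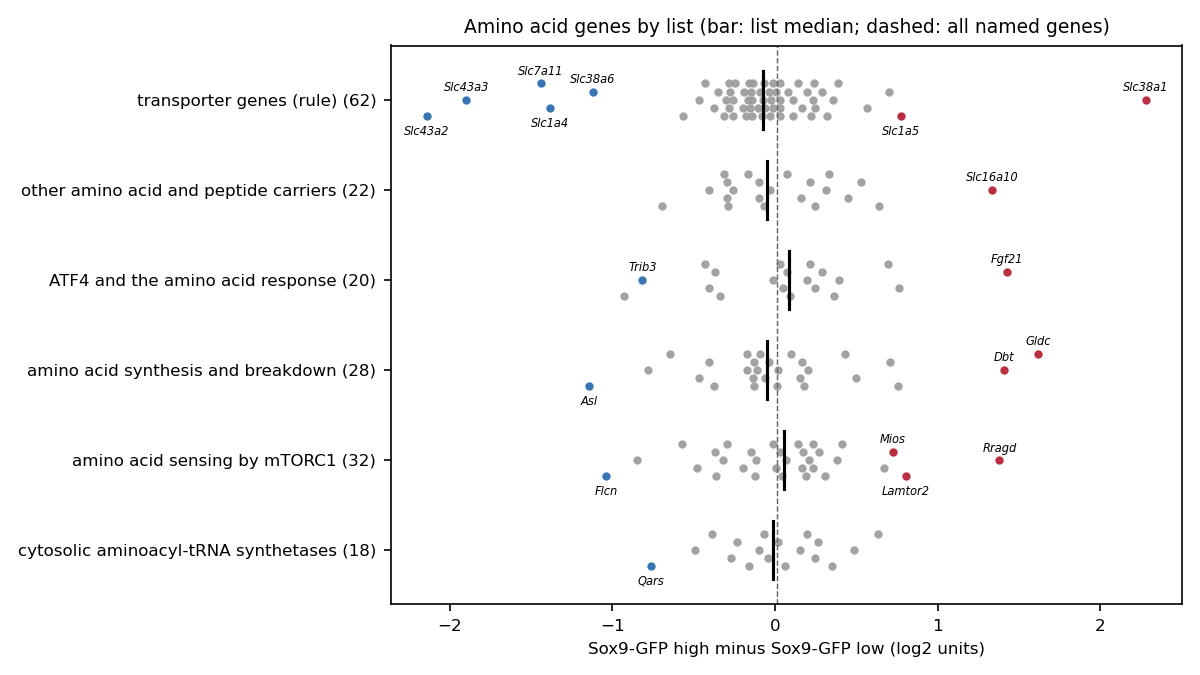
Log2 value in Sox9-GFP high cells minus that in Sox9-GFP low cells for the transporters and for 5 lists of other amino acid genes, with the number of measured genes in brackets. Each point is 1 gene, red and blue mark genes past an adjusted p of 0.05 in limma, black bars are list medians and the dashed line is the median of all named genes. Points past the threshold lie on both sides of 0 in 4 of the 6 rows, and all medians lie between -0.08 and 0.08.

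Of the 20 genes of ATF4 and the amino acid response 1 rose and 1 fell. *Fgf21*, a secreted factor that ATF4 induces, had 5.49, 5.63 and 6.51 in Sox9-GFP high cells and 4.39, 4.76 and 4.20 in Sox9-GFP low cells. It was 2.69-fold higher (adjusted p = 0.0132 from limma, 0.0512 without Sox9-GFP low replicate 3), and its Sox9-GFP low arrays were below the array medians. *Trib3*, a pseudokinase that ATF4 also induces, had 10.04, 9.74 and 10.01 against 10.75, 10.70 and 10.78, and was 1.76-fold lower (adjusted p = 0.0181 from limma). Neither gene's sorts overlapped. *Trib3* passed without Sox9-GFP high replicate 1 or Sox9-GFP low replicate 2, and without any of the other arrays its adjusted p was 0.0508 to 0.0613. *Atf4* itself differed by 0.05 (95% interval -0.33 to 0.42) and the asparagine synthetase gene *Asns* by 0.25 (-0.30 to 0.79). With the block *Mthfd2*, a mitochondrial enzyme of folate metabolism, was higher and *Gpt2*, a mitochondrial alanine transaminase, lower (adjusted p = 0.0264 and 0.0250, against 0.0821 and 0.0740 without it).

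Of 28 measured genes of amino acid synthesis and breakdown, out of 36 listed, 2 rose and 1 fell. *Gldc*, the glycine decarboxylase of the glycine cleavage system, had 5.95, 6.37 and 5.56 in Sox9-GFP high cells and 4.45, 4.24 and 4.35 in Sox9-GFP low cells, the latter all below the array medians. It was 3.07-fold higher (adjusted p = 0.00245 from limma). *Dbt*, a subunit of the complex that breaks down branched-chain keto acids, had 7.29, 7.08 and 6.62 against 5.82, 5.72 and 5.23, and was 2.65-fold higher (adjusted p = 0.00622 from limma). The sorts did not overlap for either gene, and both passed without any 1 array. *Asl*, which releases arginine from argininosuccinate, had 7.69, 6.88 and 7.39 against 8.25, 8.41 and 8.73, and was 2.21-fold lower (adjusted p = 0.0173 from limma). Without Sox9-GFP high replicate 3 or Sox9-GFP low replicate 3 its adjusted p was 0.0513 and 0.0648. *Oat*, an enzyme of ornithine breakdown, was higher with the block alone (adjusted p = 0.0231, against 0.0537), and *Cdo1*, which oxidises cysteine, differed by -0.78 with no overlap and did not pass (adjusted p = 0.104).

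Of 32 measured genes of amino acid sensing by mTORC1, out of 33 listed, 3 rose and 1 fell. *Rragd*, a Rag GTPase that brings mTORC1 to the lysosome, had 7.23, 6.28 and 7.21 in Sox9-GFP high cells and 6.11, 5.12 and 5.36 in Sox9-GFP low cells, and was 2.60-fold higher (adjusted p = 0.0279 from limma). *Lamtor2*, a part of the Ragulator that anchors the Rag proteins, had 13.92, 14.23 and 14.22 against 13.24, 13.37 and 13.33, and was 1.75-fold higher (adjusted p = 0.0203 from limma). *Mios*, a part of GATOR2, had 8.43, 8.39 and 8.39 against 7.65, 7.48 and 7.90, and was 1.65-fold higher (adjusted p = 0.0351 from limma, and 0.0633 with a trended and robust prior). The sorts of these 3 genes did not overlap, with a gap smaller than the SD within a sort for *Rragd* and larger for the others. *Flcn*, the folliculin gene, whose product acts on the Rag partners RagC and RagD, had 13.14, 12.48 and 12.22 against 13.59, 13.83 and 13.53, and was 2.05-fold lower (adjusted p = 0.0296 from limma). These 4 calls did not stand without single arrays: *Lamtor2* and *Flcn* passed only without Sox9-GFP high replicate 1, *Mios* only without Sox9-GFP low replicate 3, and *Rragd* only without Sox9-GFP high replicate 2 or Sox9-GFP low replicate 1. Their adjusted p in the fits that lost them were 0.0501 to 0.0793, 0.0647 to 0.107, 0.0794 to 0.113 and 0.0886 to 0.103. *Deptor*, an inhibitor of mTOR, was lower with the block alone (adjusted p = 0.0286, against 0.0692).

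Of 18 measured cytosolic aminoacyl-tRNA synthetases, out of 20 listed, none rose in limma, with or without the block, and 1 fell. *Qars*, which loads glutamine onto its tRNA, had 13.93, 13.65 and 13.83 in Sox9-GFP high cells and 14.40, 14.84 and 14.47 in Sox9-GFP low cells. The sorts did not overlap and it was 1.70-fold lower (adjusted p = 0.0370 from limma), a call that was lost without any 1 array, at 0.0523 to 0.117. *Farsb*, *Vars* and *Iars* had differences of 0.63, 0.49 and -0.49 with no overlap and did not pass (adjusted p = 0.0604, 0.166 and 0.207 from limma).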

How the data were processed

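Luminal mammary epithelial cells had been FACS-sorted by Sox9-GFP, and total RNA had been biotin-labelled (GeneChip WT PLUS) and hybridised to 1-colour arrays, 3 a sort. The values, deposited by the authors, are on the log2 scale with 1 value for each probe set and array. Their normalization is not stated in the labels or methods, so the scale below the array medians is uncertain. Of 22206 probe sets, 19572 had 1 symbol and 2634 none. All 19572 matched RefSeq by gene identifier and 0 symbols changed. Where a gene had several probe sets, the one with the highest mean stood for it. Array medians were 5.15 to 5.21. Arrays correlated across probe sets at Pearson's r of 0.992 to 0.994 within sorts and 0.979 to 0.988 between them, and no 2 arrays were identical. The number of arrays, 6, limits the precision.

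The limma package (3.58.1, in R 4.3.3) fitted all probe sets without a block (lmFit and eBayes, two-sided, Benjamini-Hochberg, threshold 0.05). The methods name an unpaired t-test for statistics in general and do not name one for the arrays. Deviations from the sort means correlated at 0.218 to 0.236 for arrays of the same number and at -0.161 to -0.0604 for others. A shared number may therefore mark a pair. The main calls, their standard errors and the fits that left out arrays nonetheless take no account of it. The fit with the number as replicate block is given beside them where it changes a call.

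Named genes were every carrier past the threshold without or with the block, the brightest carrier and the one with the largest difference in each family, both Slc3a genes, *Sox9*, and up to 4 genes a list by difference, those past the threshold first. Other genes named were picked with their values in view. The members, lists and markers were chosen with earlier results of these data known. The list of amino acid synthesis and breakdown lacked 8 genes here. Of the marker lists, 1 of 4 erythroid genes was measured (*Alas2*, difference -0.46, not past the threshold), and no endothelial, immune or neuronal marker passed without the block (*Eng* fell with it). Alternatives were quantile normalization, centring on array medians, array weights, a trended and robust prior, a filter on the dimmest 33% of probe sets, the mean over probe sets, the methods' t-test, the block, and fits without each array or number.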

Additional observations from a re-analysis of the deposited data

How the results depend on the processing

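The same 7 transporters passed under quantile normalization, centring, without the dimmest 33% of probe sets (40 of the 62 were fitted), with a trended and robust prior, with array weights and with the mean over probe sets. The mean over probe sets could not change the values of these genes, each of which had 1 probe set. The replicate block added *Slc7a3* (difference 0.70, adjusted p = 0.0487) and changed no other call among them. In fits without 1 array or 1 number the count of genes that rose ran from 1 to 2 and of those that fell from 1 to 5, with 3 without both arrays numbered 1 and 1 without both numbered 3. *Slc38a1* and *Slc43a2* passed in all 9 such fits. Those fits have fewer arrays and no block, and they called 547 to 1231 of all probe sets, against 1599 with all arrays. The methods' t-test with Benjamini-Hochberg adjustment passed 0 transporters that rose, 0 that fell, 0 listed genes and 3 probe sets in all. Unadjusted, it passed 2 that rose and 7 that fell of the 62, adding *Slc1a7* and *Slc7a7*, and 24 of the 120 listed genes. In that form it passed 3765 of all 22206 probe sets. The difference of *Sox9* was 1.01 with an adjusted p of 0.232 in that t-test, and 0.82 to 1.24 in the fits that left out arrays. The count of 11 listed genes was 16 with the block, which called 2512 of all probe sets, and 2 to 8 in those fits. Among named genes that did not pass, the sign turned for *Slc36a4* (-0.195 to 0.126) and *Slc3a1* (-0.209 to 0.0667) as arrays were left out, for *Slc38a2* under quantile normalization (0.0365) and for *Slc6a9* without both arrays numbered 2 (-0.0529, and 0.405 without both numbered 3). Of the named listed genes, *Mios* was lost with a trended and robust prior, and *Oat* and *Farsb* passed without the dimmest probe sets and with array weights, respectively. Of the other 144 carriers and listed genes, 9 passed and 72 changed sign under some alternative. The cause of these shifts was not tested. Without a measure of background, changes below the array medians may be understated.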
